A study of Mus musculus with 13 samples.

Results

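The Dlk1 to Dio3 imprinted domain on mouse chromosome 12 was described across 13 libraries of reduced representation bisulfite sequencing (RRBS), a method that digests DNA with MspI at CCGG sites and reads methylation in the CpG-rich fragments that result. All CpGs read within the domain, from position 110655057 to position 111549024 of build mm9, were taken as its members. There were 2043 of them, of 3340630 CpGs read in the series. Single libraries read between 671 and 1287 of these CpGs. The level of a window or of a 1 kb tile was the number of methylated reads as a percentage of all reads over its CpGs.

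The series followed mouse embryonic fibroblasts (MEFs) as they were reprogrammed to induced pluripotent stem cells (iPSCs), with a question about the number of X chromosomes. The groups were 2 libraries of male MEFs, 1 library each of male reprogramming intermediates sorted as negative or positive for the surface antigen SSEA1, 3 libraries of male iPSCs, 4 libraries of female iPSCs labelled XO (1 X chromosome) and 2 libraries of female iPSCs labelled XaXa (2 active X chromosomes). The iPSCs were depleted of feeder cells before DNA was taken. The strain, the reprogramming factors and the age of the donor embryos were not given in the sources used here, nor whether libraries of a group came from separate lines. If they did not, the p-values below reflect technical spread alone. Libraries are named below by group and by the number in their label.

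The domain holds paternally expressed protein-coding genes, among them Dlk1, a transmembrane Notch-family ligand that acts in growth and adipocyte differentiation, Rtl1, derived from a retrotransposon, and Dio3, the deiodinase that inactivates thyroid hormone. From the maternal chromosome it expresses the non-coding RNAs Meg3 (also called Gtl2), Rian, which hosts small nucleolar RNAs, and Mirg, which hosts a large cluster of microRNAs. An intergenic region between Dlk1 and Meg3, the IG region, is methylated on the paternal chromosome from the germline onward and directs the imprint of the whole domain, while methylation over the Meg3 promoter is acquired on the paternal chromosome after fertilisation. In mouse iPSCs this domain is known for gain of methylation with silencing of Meg3 in some lines. With 1 methylated and 1 unmethylated copy, a region is read at an intermediate level. RRBS does not tell the parental copies apart.

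The promoter of Meg3 and the promoter of Dio3 are shown because the first lies in the tiles with the largest spread of the domain between libraries of a group and the second had at most 1.39% methylated reads in any library, although on few reads in several. Both are RefSeq sequences of build GRCm38.p6, 300 bases long, from 250 bases before the start site onward. They were placed in mm9 by matching the sequence contexts that the deposited files give for each CpG. Capitals mark the CpGs read in at least 1 library, which were 11 of 13 for Meg3 and 25 of 25 for Dio3. Each iPSC library read only 3 of those of Meg3, while each MEF and SSEA1 library read 11. No library read more than 18 of those of Dio3.
Meg3, chr12:110778956-110779255, plus strand: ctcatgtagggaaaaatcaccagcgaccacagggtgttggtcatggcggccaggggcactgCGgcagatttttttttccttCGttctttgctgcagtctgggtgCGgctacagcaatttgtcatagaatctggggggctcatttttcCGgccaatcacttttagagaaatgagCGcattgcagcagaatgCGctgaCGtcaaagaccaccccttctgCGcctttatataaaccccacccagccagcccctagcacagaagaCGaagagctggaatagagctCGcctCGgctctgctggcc
Dio3, chr12:111517190-111517489, plus strand: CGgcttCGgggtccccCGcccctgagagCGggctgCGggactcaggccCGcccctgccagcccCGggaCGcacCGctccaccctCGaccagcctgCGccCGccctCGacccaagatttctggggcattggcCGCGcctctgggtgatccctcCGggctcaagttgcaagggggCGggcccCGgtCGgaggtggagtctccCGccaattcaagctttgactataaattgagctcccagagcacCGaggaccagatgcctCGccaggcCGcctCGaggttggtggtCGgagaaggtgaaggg
The hexamer TGCCGC is the motif bound, when methylated, by the imprint-protecting factor ZFP57. Searched on both strands, it occurred in 3813 of 32851 RefSeq promoters of this length (11.6%). It occurred in the Meg3 promoter 1 time, on the minus strand, over the measured CpG at position 110779017. It was not found within the printed Dio3 letters. Promoters of Dlk1, Rian and Mirg could not be placed this way.

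Some properties of the libraries touch the results that follow. Total reads per library ran from 4784488 (XO 9) to 143148634 (XaXa 8). Read depth on the X chromosome relative to the male iPSCs was 1.35 in both XaXa libraries, but also 1.28, 1.15 and 1.34 in XO 3, XO 5 and XO 9, against 0.99 in XO 6. On the same scale the male libraries MEF 4 and MEF 5 were at 0.842 and 1.13. The X depth of XO 3 and XO 9 therefore lay near that of the XaXa libraries, and that of XO 5 lay above the male iPSCs but close to MEF 5. Results for the XO group are also given without XO 3, XO 5 and XO 9. Depth over the domain itself, from 443 CpGs, lay between 0.851 and 1.19 of the expected. At the promoter of Pou5f1, a pluripotency gene that is methylated in fibroblasts, levels were 57.1% and 63.1% in MEFs, 65.3% and 62.0% in the SSEA1-negative and SSEA1-positive cells, 6.25% to 15.2% in male iPSCs and 5.83% and 7.14% in XaXa iPSCs, but 25.9% to 64.9% in the 4 libraries labelled XO. The mean level over 93340 autosomal tiles was 30.4% and 37.3% in XaXa iPSCs and 50.5% to 62.8% in the other 11 libraries, so a lower level in XaXa iPSCs is the background of every comparison with them. MEF and SSEA1 libraries also read other CpGs than iPSC libraries did: 231 CpGs of the domain were read in all 4 of them and in none of the 9 iPSC libraries, and 335 were read in all 13.

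The IG region was the most sparsely covered of the 4 windows, with 22 CpGs between positions 110758446 and 110767085 and 5 to 295 reads per library. Only 2 of these CpGs were read in all 13 libraries. Most iPSC reads came from 4 CpGs between 110766835 and 110767085. They held 36 of 42 reads in male iPSC 1, 110 of 141 in male iPSC 4, 170 of 215 in XO 6 and 62 of 80 in XO 5. The SSEA1-positive cells had 7 reads at those CpGs, 2 of them methylated. Male iPSC 1 and 2 were read at 92.9% and 100% methylated, and male iPSC 4 at 34.8%. Among the libraries labelled XO, XO 6 was at 92.1%, XO 9 at 71.4%, XO 3 at 46.2% and XO 5 at 25%. XaXa 7 and 8 were at 28.9% and 23.7%. MEF 5 was at 50.0%, the SSEA1-negative cells at 62.5% and the SSEA1-positive cells at 57.1%, each on 14 to 22 reads; MEF 4 had 5 reads and was left out under the minimum of 10 reads. The male iPSC group and the XO group thus each held libraries near full methylation and libraries at or below the intermediate level of the fibroblast-derived cells. The same split stood at single CpGs. At position 110767055, which lies 12.2 kb before the Meg3 start site, all 16 reads of male iPSC 1 and all 10 of male iPSC 2 were methylated, as were 95% of 60 reads in XO 6, against 30% of 40 reads in male iPSC 4 and 15.0% of 20 in XO 5. No CpG of the region had at least 5 reads in all 13 libraries.

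**Figure D1:**
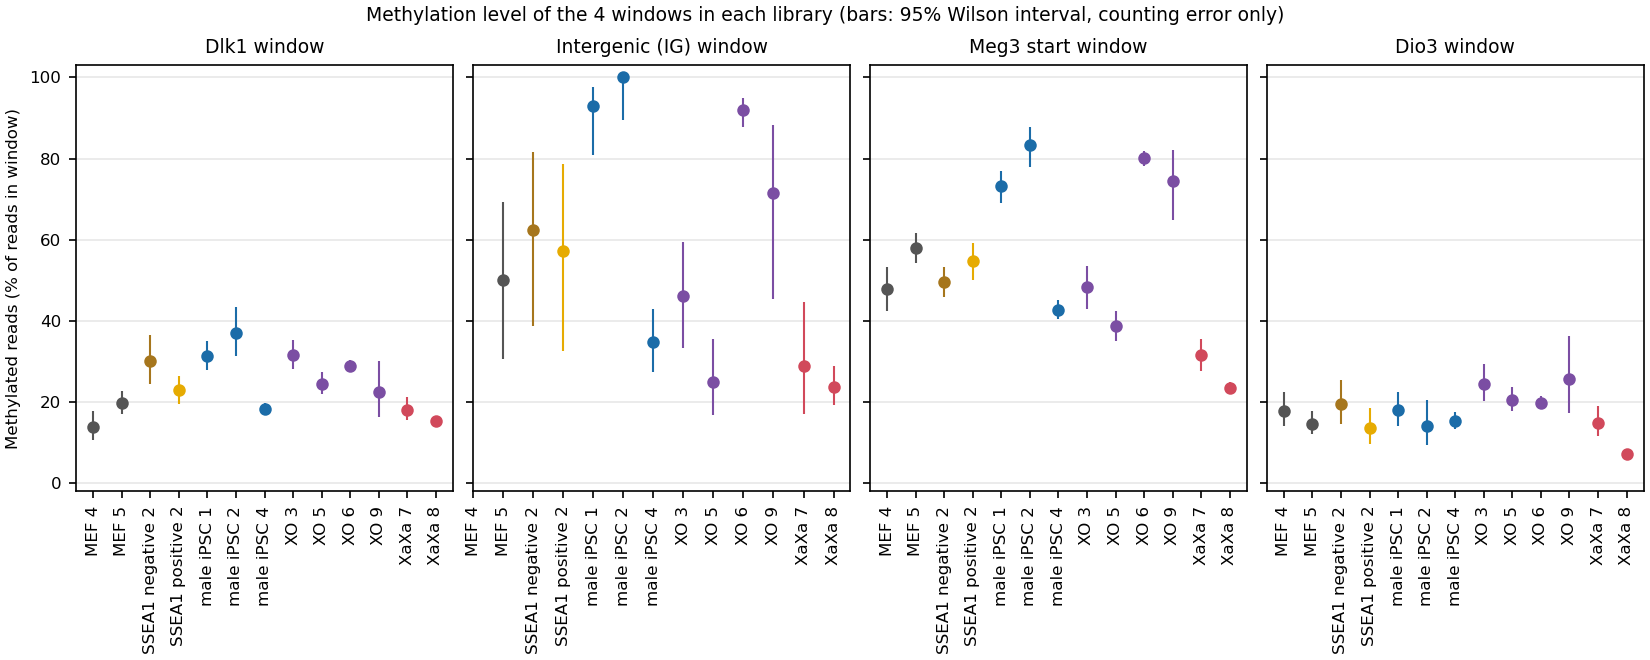
Methylated reads as a percentage of all reads (vertical axis) in each of the 13 libraries (horizontal axis) for the Dlk1, IG, Meg3 start and Dio3 windows; points are libraries, colours are groups and bars are 95% Wilson intervals for counting error only. In the IG and Meg3 start windows male iPSC 1 and 2, XO 6 and XO 9 lie above 70%, while male iPSC 4, XO 3 and XO 5 lie between 25% and 48.2%; MEF 4 is not drawn in the IG window, where it had 5 reads.

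The Meg3 start window, with 83 CpGs between positions 110777866 and 110784722 and 94 to 3149 reads per library, split the same libraries. Male iPSC 1, 2 and 4 were at 73.2%, 83.3% and 42.8%. XO 3, 5, 6 and 9 were at 48.2%, 38.7%, 80.2% and 74.5%. XaXa 7 and 8 were at 31.6% and 23.4%, below every other library. MEF 4 and 5 were at 47.9% and 58.1%, and the SSEA1-negative and SSEA1-positive cells at 49.6% and 54.7%. The libraries above 70% in this window were the 4 that were above 70% in the IG region.

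The difference between libraries was larger near the Meg3 start site than downstream of it. On 8 CpGs with at least 5 reads in every library, the 4 within about 1 kb of the start site (110778506 to 110779280) were read at 66.0%, 83.3% and 16.2% in male iPSC 1, 2 and 4. In XO 3, 5, 6 and 9 they were at 40.0%, 25.6%, 78.2% and 68.8%, in the XaXa libraries at 21.6% and 15.5%, and in MEF 4 and 5 at 28.3% and 47.2%. The SSEA1-negative and SSEA1-positive cells were at 37.1% and 47.2%. At the 4 CpGs lying further downstream (110782981 to 110784119) both MEF libraries were high, at 93.6% and 93.1%, as were the SSEA1 libraries at 85.0% and 76.7%. There male iPSC 1, 2 and 4 were at 76.6%, 76.6% and 60.4%, so that male iPSC 4 differed from the other two by less than at the start. XO 3, 5, 6 and 9 were at 50.0%, 55.4%, 81.4% and 84.4% downstream, and the XaXa libraries at 39.8% and 34.1%. Fibroblasts therefore showed low to intermediate levels at the start and high levels downstream, and male iPSC 1 and 2 showed high levels at both. Within the printed promoter, the CpG at 110779103 was methylated in 65.5% of 29 reads in male iPSC 1, 90% of 10 in male iPSC 2, 6.60% of 106 in male iPSC 4, 63.5% of 63 in XO 6 and 8.82% of 34 in XO 5.

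**Figure D2:**
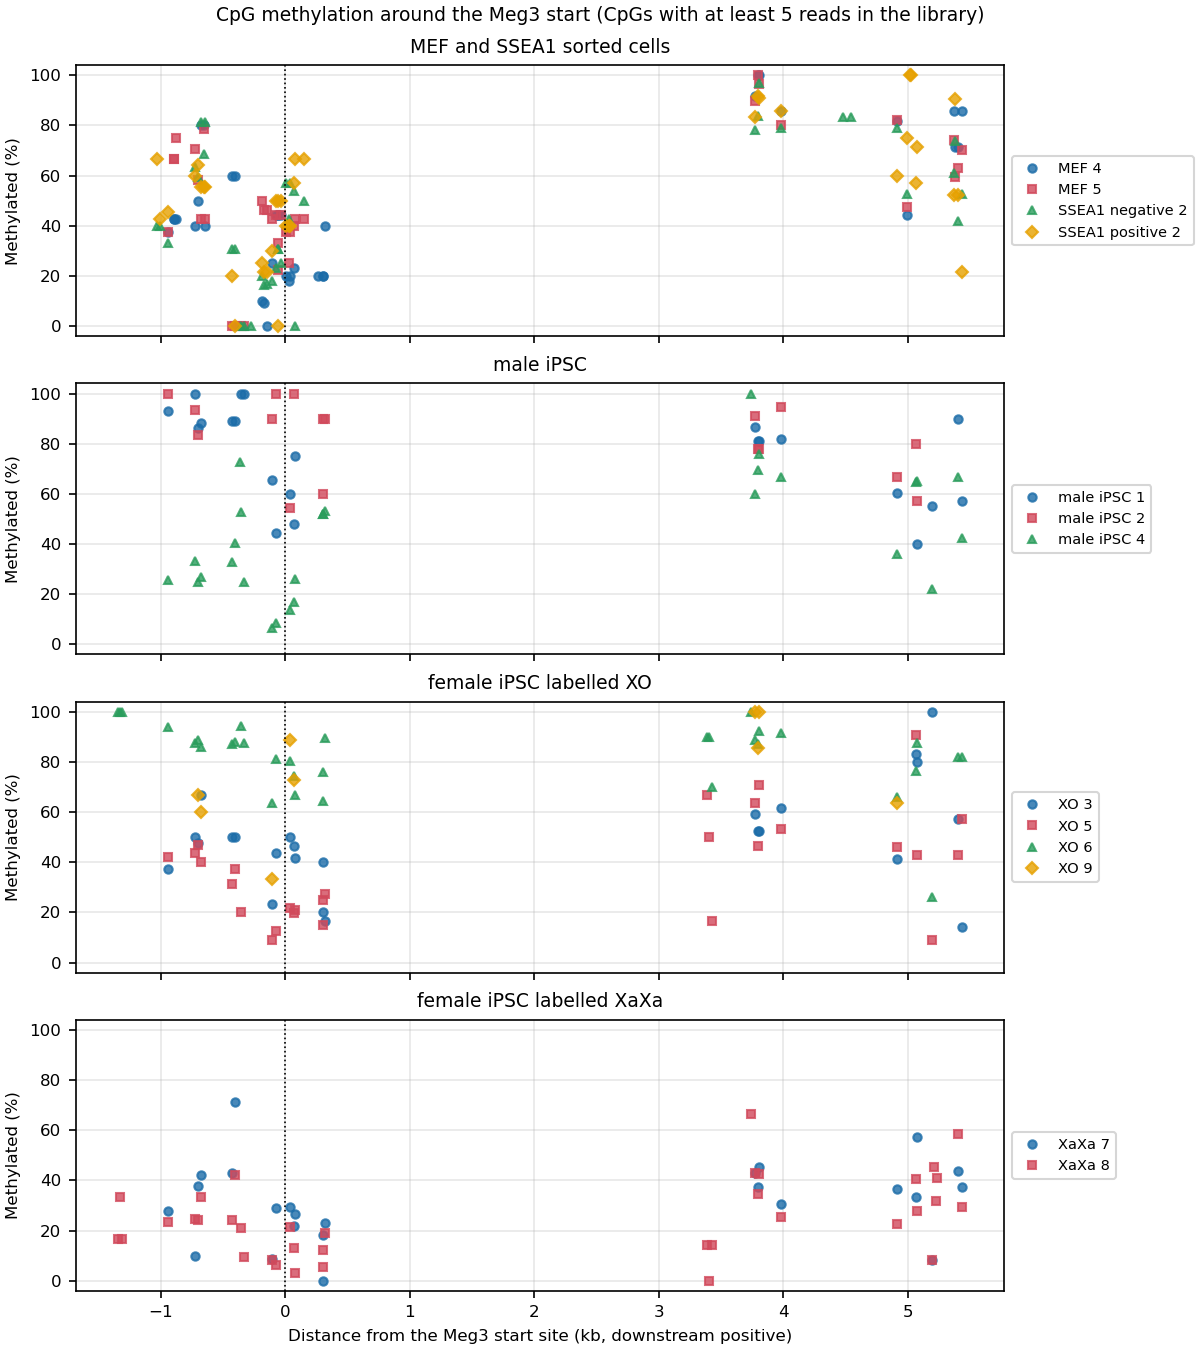
Methylation of single CpGs (vertical axis, percent) by distance from the Meg3 start site in kb (horizontal axis; dotted line, start site), for CpGs with at least 5 reads in the library, in 4 panels by group with 1 symbol per library. Close to the start site male iPSC 1 and 2 and XO 6 and 9 lie mostly above male iPSC 4, XO 3 and XO 5, and the MEF and SSEA1 libraries are high downstream and lower around the start site.

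Among all tiles of the genome a spread of this size within a group was uncommon. In 101787 tiles of 1 kb covered by no fewer than 10 reads per library across the 11 libraries of replicated groups, the median distance between the highest and the lowest library was 13.8 percentage points in the XO group and 9.54 points in the male iPSC group, and the 99th percentiles were 51.7 and 39.3 points. The tile just before the Meg3 start site (110778176 to 110778933) spanned 48.6 points in the XO group and 59.6 points in the male group. The tile holding the start site (110779017 to 110779987) spanned 55.7 and 63.5 points. In the male group 0.0305% and 0.0147% of all tiles spanned at least as much, and in the XO group 1.49% and 0.601%. A span at least as large in both groups was found in 9 and 5 tiles of the 101787, these tiles included. The tile 3.8 kb downstream spanned 39.9 points in the XO group and 15.3 in the male group.

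**Figure D3:**
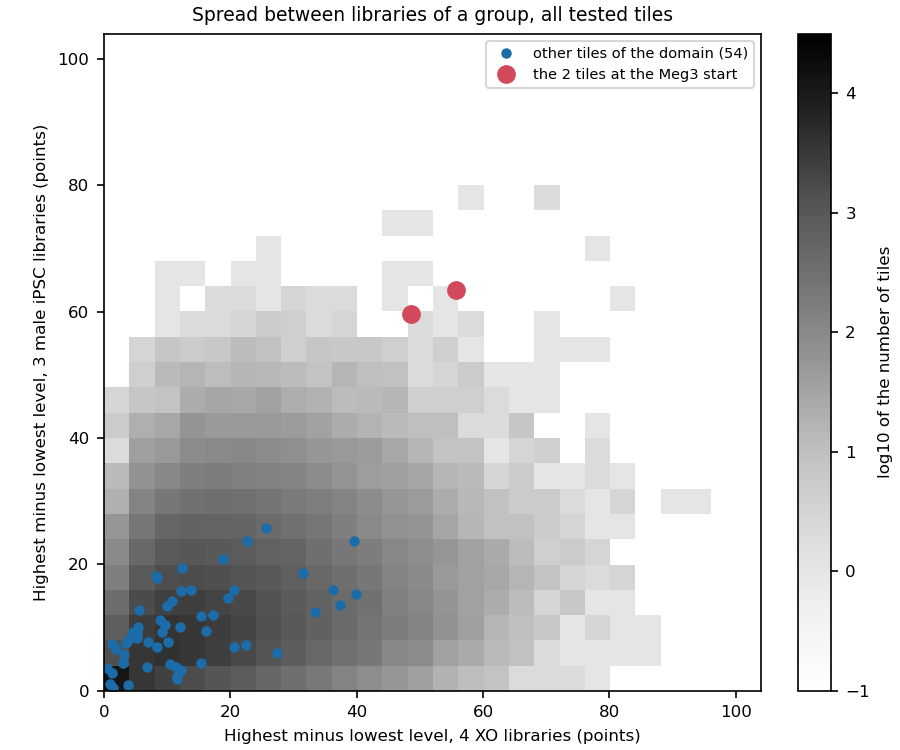
Highest minus lowest level, in percentage points, among the 4 XO libraries (horizontal axis) and the 3 male iPSC libraries (vertical axis) for all 101787 tiles (grey, log10 of the number of tiles per bin), for the domain's other tiles (blue) and for the 2 tiles at the Meg3 start (red). The 2 red points, at 48.6 and 59.6 points and at 55.7 and 63.5 points, lie beyond all other tiles of the domain on both axes.

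With libraries this far apart, the group means of these windows did not separate the groups. The IG region averaged 58.7% ± 29.3 (SD, n = 4) in the XO group and 75.9% ± 35.8 (SD, n = 3) in male iPSCs, a difference of -17.2 points (two-sided exact permutation test, p = 0.486). Leaving out 1 library moved it between -37.8 points (without male iPSC 4) and -5.14 points (without male iPSC 2), and without XO 3, XO 5 and XO 9 the sign turned, to 16.2 points. The Meg3 start window averaged 60.4% ± 20.1 (SD, n = 4) and 66.4% ± 21.1 (SD, n = 3), a difference of -6.02 points (exact permutation test, p = 0.743) that was 13.8 points without XO 3, XO 5 and XO 9. It also turned positive without XO 5 (1.22 points) and without male iPSC 2 (2.44 points).

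Over the whole Meg3 start window XaXa iPSCs had the lowest levels, 27.5% ± 5.80 (SD, n = 2), with no overlap with either comparison group. Their difference from the XO group was -32.9 points (exact permutation test, p = 0.133, smallest possible 0.0667), and from male iPSCs -38.9 points (exact permutation test, p = 0.2, smallest possible 0.1). Close to the start site the libraries did overlap. At the 4 CpGs there male iPSC 4, at 16.2%, lay between XaXa 8 and 7, at 15.5% and 21.6%. Over the printed Meg3 promoter male iPSC 4 was at 8.38% and XO 5 at 14.4%, beside 12.4% and 18.2% in XaXa 8 and 7. In the IG region the XaXa mean of 26.3% ± 3.69 (SD, n = 2) differed from the XO mean by -32.3 points and from the male mean by -49.5 points (exact permutation tests, p = 0.2 for both). XO 5 at 25% lay between the XaXa libraries. Neither window could reach 0.05 in these designs. With each library's autosomal mean subtracted, the Meg3 differences became -11.4 and -18.0 points and the IG differences -10.8 and -28.6 points. Without XO 3, XO 5 and XO 9 the differences from the remaining XO library were -52.7 points at the Meg3 start and -65.8 points in the IG region.

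Male iPSCs were compared with the MEFs to follow the domain through reprogramming. In the Meg3 start window they were 13.5 points higher (exact permutation test, p = 0.5, smallest possible 0.1). On the 8 CpGs with at least 5 reads in every library the difference was 0.0718 points, a balance of opposite differences. Male iPSCs averaged 55.2% against 37.7% in MEFs at the 4 CpGs near the start site, and 71.2% against 93.4% at the 4 downstream. The difference over all CpGs ran from 4.997 points without male iPSC 2 to 25.3 points without male iPSC 4. In the IG region the difference was 25.9 points against the single MEF library with enough reads, with an exact permutation p of 1 and a smallest possible p of 0.25, and ran from 13.8 points without male iPSC 2 to 46.4 points without male iPSC 4. In the tile just before the start site the difference was 17.5 points (quasi-binomial model described below, adjusted p = 0.550), and passed the threshold only without male iPSC 4 (40.6 points, adjusted p = 0.0313). The 2 sorted intermediates, with no replicate, lay between the 2 MEF libraries in the Meg3 start window.

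The Dlk1 window, with 129 CpGs between positions 110686077 and 110704141, was low as a whole, although the tile at its near end, described below, was not. Male iPSC 1, 2 and 4 were at 31.3%, 37.1% and 18.2%, and XO 3, 5, 6 and 9 at 31.5%, 24.5%, 28.8% and 22.5%. XaXa 7 and 8 were at 18.1% and 15.2%, MEF 4 and 5 at 13.8% and 19.8%, and the SSEA1-negative and SSEA1-positive cells at 30.1% and 22.9%. Male iPSC 4, low at Meg3, was here beside the XaXa libraries. The XaXa mean was 16.7% ± 2.06 (SD, n = 2) against 26.8% ± 4.09 (SD, n = 4) in the XO group, a difference of -10.1 points that reached the smallest p of the design (exact permutation test, p = 0.0667). Relative to the autosomal mean the sign turned, to 11.4 points. The difference from male iPSCs was -12.2 points (exact permutation test, p = 0.2) and 8.74 points relative to the autosomal mean. Autosomal means averaged 33.9% in XaXa, 55.4% in XO and 54.8% in male iPSCs. A window this low leaves little room for a negative value after that subtraction, so these signs carry little information. Male iPSCs exceeded MEFs by 12.1 points over all CpGs (exact permutation test, p = 0.3) but the difference was -6.62 points on the 4 CpGs read at least 5 times in all libraries. XO and male iPSCs differed by -2.06 points (exact permutation test, p = 0.743), and by 2.05 without male iPSC 2.

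At the other end of the domain the Dio3 window, with 196 CpGs between positions 111513382 and 111520730, was also low. XO 3, 5, 6 and 9 were at 24.5%, 20.6%, 19.8% and 25.6%, male iPSC 1, 2 and 4 at 17.9%, 14.1% and 15.3%, and XaXa 7 and 8 at 14.9% and 7.24%. MEF 4 and 5 were at 17.9% and 14.7%, and the SSEA1-negative and SSEA1-positive cells at 19.5% and 13.5%. All 4 libraries labelled XO lay above all 3 male iPSC libraries, by 6.85 points on average (exact permutation test, p = 0.0286, the smallest possible; 0.356 after Benjamini-Hochberg adjustment over the 16 window comparisons). This call did not hold over an unweighted mean of CpGs (11.4 points, exact permutation p = 0.457), on CpGs read in every library of both groups (10.1 points, exact permutation p = 0.0571), or relative to the autosomal mean (6.27 points, exact permutation p = 0.2). Without XO 3, XO 5 and XO 9 the difference was 4.05 points, and leaving out any 1 library gave 5.85 to 7.92 points with a design that cannot reach 0.05. XaXa iPSCs were lower than the XO group by a difference of -11.6 points (exact permutation test, p = 0.0667) and differed from male iPSCs by -4.71 points (exact permutation test, p = 0.2). Without XaXa 7 these differences were -15.4 and -8.54 points, and without XaXa 8 they were -7.72 and -0.869 points. Male iPSCs and MEFs differed by -0.494 points (exact permutation test, p = 0.8). The level came from outside the promoter. Over the printed Dio3 promoter 9 of 13 libraries had no methylated read, and the highest levels were 1.39% in male iPSC 1 (1 of 72 reads, 95% Wilson interval 0.246% to 7.46%) and 0.830% in XaXa 8 (10 of 1205 reads). XO 6 had 0 of 580 reads, which allows a level of up to 0.517%. The shallowest libraries allow far more, up to 25% in XO 9 (0 of 12 reads) and 33.3% in the SSEA1-positive cells (0 of 9 reads, under the minimum of 10). Whether the Dio3 promoter differed between libraries was not detectable at this depth.

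Between these windows the domain was mostly highly methylated outside XaXa iPSCs. From Dlk1 to the IG region, XO and male iPSC libraries lay between 72.6% and 82.0% and MEFs at 78.7% and 79.8%, against 43.4% and 55.95% in XaXa 8 and 7. Those MEF levels rest mostly on 1 tile (110708323 to 110708598), with 1030 of 1307 reads in MEF 4 and 3553 of 4233 in MEF 5. It held 47 of 910 reads in male iPSC 1 and 59 of 2164 in male iPSC 4. In that tile MEFs were at 80.7% and 81.4%, male iPSCs at 61.1% to 72.9% and XO libraries at 50% to 65.4%. The Meg3 body with Rtl1 was at 78.2% to 91.4% in XO and male iPSCs, 78.0% and 83.6% in MEFs, and 52.7% and 57.3% in XaXa iPSCs. The stretch holding Rian stood at 88.2% and 76.7% in MEF 4 and 5, at 78.5% and 68.5% in the SSEA1-negative and SSEA1-positive cells, at 53.9% to 70.5% in XO and male iPSCs and at 41.7% and 32.0% in XaXa iPSCs. The stretch holding Mirg, with 37 CpGs, was at 56.02% to 60.2% in male iPSCs, a span of 4.18 points. MEF 4 and 5 were further apart, at 64.7% on 51 reads and 40.5% on 299 reads, as were the SSEA1-negative and SSEA1-positive cells, at 77.2% and 48.4%. XO 3, 5 and 6 were at 54.8% to 60.3% and XO 9 at 40.0% on 40 reads, and the XaXa libraries at 47.5% and 33.1%. From Mirg to Dio3, which holds 990 of the domain's CpGs, XO and male iPSCs lay between 62.7% and 72.4%, MEFs at 67.01% and 70.8%, and XaXa iPSCs at 48.2% and 37.2%. Male iPSC 4, XO 3 and XO 5, low at the Meg3 start, lay there at 63.8%, 70.4% and 66.5%, within the span of the other XO and male iPSC libraries.

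**Figure D4:**
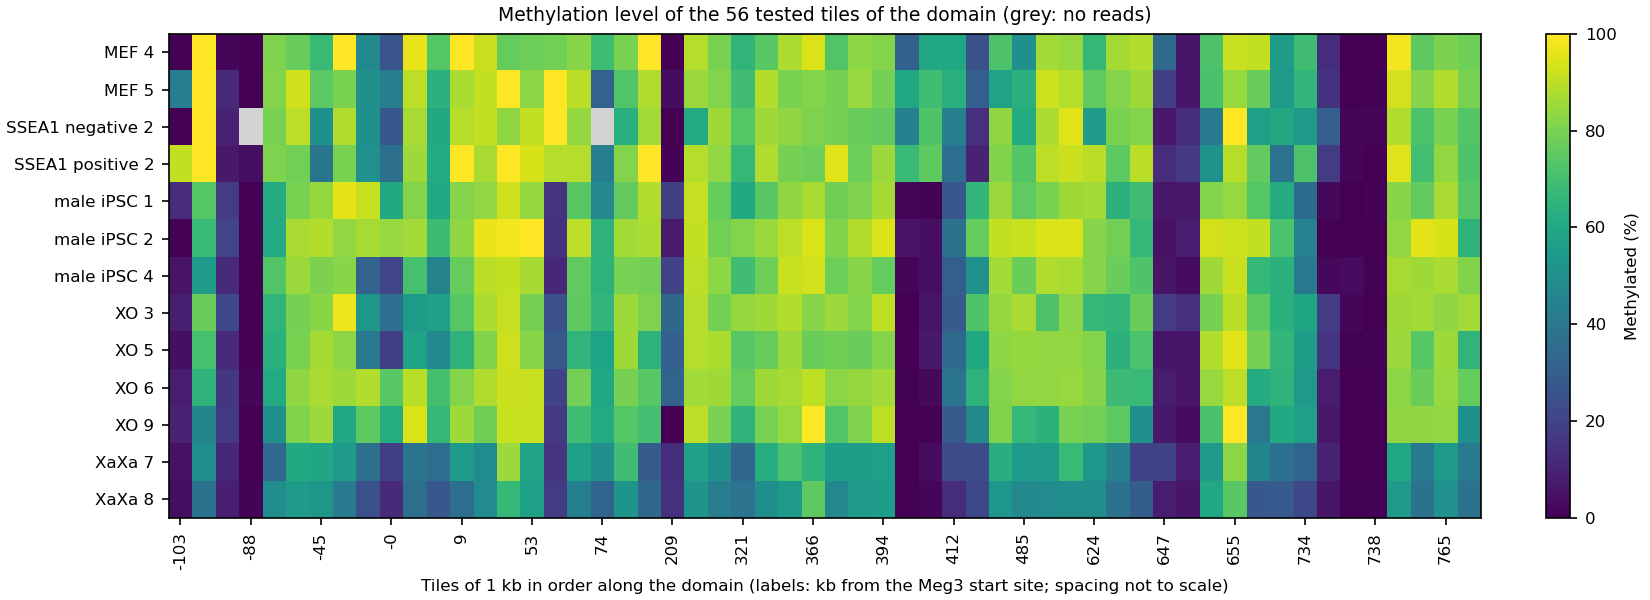
Methylation level (colour, percent) of the 56 tested tiles of 1 kb in order along the domain (horizontal axis, labelled in kb from the Meg3 start site, not to scale) in the 13 libraries (vertical axis). XaXa 7 and 8 are lower across most of the domain, and at the tiles around 0 kb male iPSC 4, XO 3 and XO 5 differ from male iPSC 1 and 2, XO 6 and XO 9.

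A quasi-binomial model was fitted over all 101787 tiles, with p-values adjusted by Benjamini and Hochberg's method. Calls were made at adjusted p below 0.05 and a difference of at least 10 points. It was used to test the 56 tiles of the domain that had enough reads, none of which lay in the IG window. Group levels and differences of this model are fitted values with reads down-weighted, and can differ from pooled read percentages. Against the XO group 39 of the 56 tiles were lower in XaXa iPSCs and 0 higher, beside 67.7% of all tiles lower and 0.0108% higher. Against male iPSCs 38 were lower and 0 higher, beside 59.7% and 0.0678% of all tiles. The median difference in the domain was -26.7 points against the XO group and -28.2 against male iPSCs, and over all tiles -26.5 and -25.4 points. These shares and medians lay near those of the background. With XaXa 7 as the only XaXa library 0 tiles of the domain, and 0 of all 101787, were called in either comparison, although 23 and 29 of the 56 had an unadjusted p below 0.05 in that model. The differences themselves remained large: over the named tiles called against the XO group they ran from -48.1 to -22.0 points without XaXa 8 (adjusted p = 0.0820 to 0.214), beside -42.0 to -28.9 points with both. With XaXa 8, the most deeply read library, as the only XaXa library the counts were 38 and 36. Without XO 3, XO 5 and XO 9, 26 tiles were lower than in the remaining XO library.

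Among the tiles not called in XaXa iPSCs were some near 0 in every iPSC group. That in the Dlk1 window at 110691550 to 110691964 was at a fitted 0.633% in XaXa iPSCs and 0.416% in the XO group. The tile holding the Dio3 promoter was at a fitted 0.481% and 0.373%. The tiles at the Meg3 start stood near the threshold. The tile before the Meg3 start was at 29.99% in XaXa iPSCs against 63.8% in the XO group (difference -33.8 points, quasi-binomial model, adjusted p = 0.0664) and 66.4% in male iPSCs (-36.4 points, adjusted p = 0.0647). The tile at the start site differed by -31.9 points from the XO group (adjusted p = 0.0566) and by -37.3 points from male iPSCs (adjusted p = 0.0437), the second losing its call without either XaXa library (adjusted p = 0.0910 without XaXa 7 and 0.243 without XaXa 8) and without male iPSC 1 or 2 (0.0986 and 0.158). These calls moved with the setting. Against the XO group 6 of 14 alternatives called the tile before the start (adjusted p = 0.00822 to 0.350) and 6 of 15 the tile at the start (0.00288 to 0.283), among them the fits without XO 5. Against male iPSCs 2 of 12 alternatives called the first (0.0191 to 0.338), and 6 of 13 lost the call of the second (0.0179 to 0.243). The tile 3.8 kb downstream was called in both comparisons (-35.5 points, adjusted p = 0.00849, and -40.9 points, adjusted p = 0.00755), as was that 4.9 kb downstream (-28.9 and -24.7 points, adjusted p = 0.0103 and 0.0286). Without XaXa 8 neither of these tiles was called, at differences of -34.1 and -39.5 points for the first (adjusted p = 0.101 and 0.0921) and -24.3 and -20.2 points for the second (adjusted p = 0.127 and 0.214).

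Between the XO group and male iPSCs 0 of the 56 tiles were called by this model, and 0 of all tiles (0% of the background). In that comparison 1 tile of the domain, and 2957 of all, had an unadjusted p below 0.05, and limma on log2 ratios also called 0 in the domain, with 1 at an unadjusted p below 0.05. That 1 tile (111515716 to 111515943), named here after its values were seen, lies in the Dio3 window and was higher in the XO group by 10.5 points (unadjusted p = 0.0241). The median difference was -1.46 points in the domain and 0.446 points over all tiles.

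**Figure D5:**
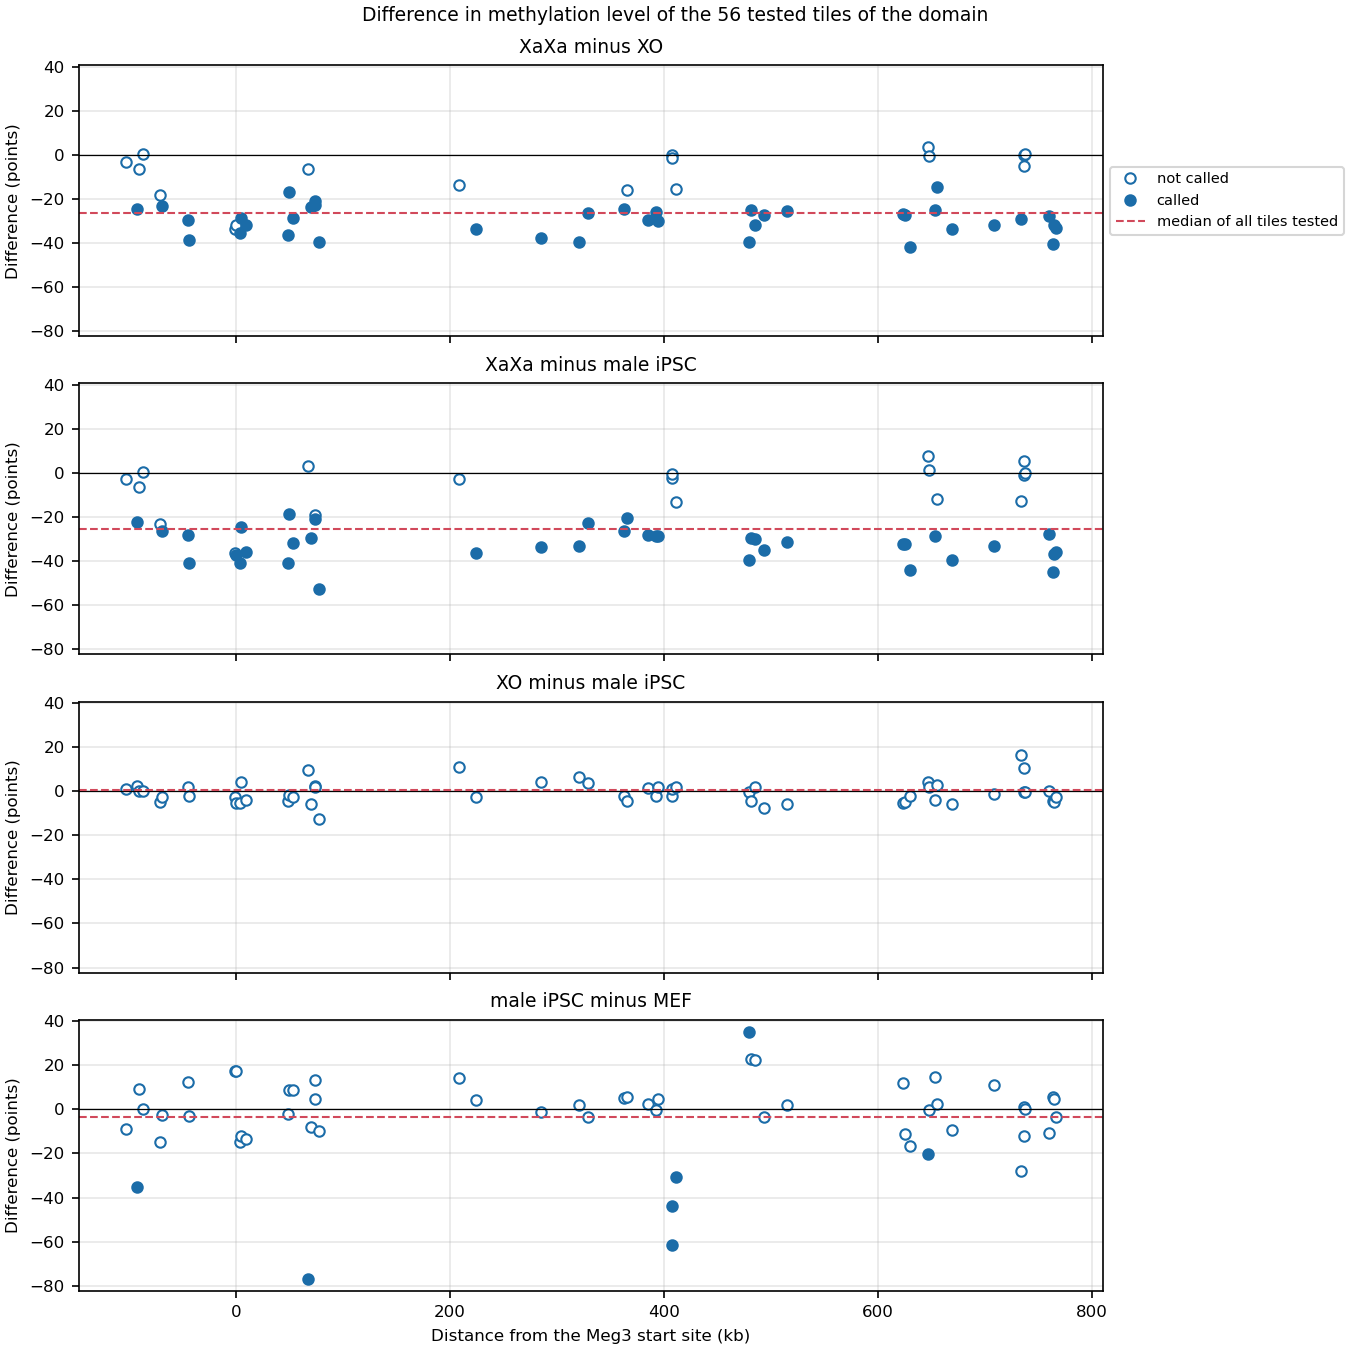
Difference in level in percentage points (vertical axis) of the 56 tested tiles by distance from the Meg3 start site in kb (horizontal axis) for the 4 comparisons; filled points were called, open points were not, and the dashed line is the median of all tiles tested. Against XaXa iPSCs most tiles lie near the dashed line, and no tile was called between XO and male iPSCs. In male iPSCs against MEFs 6 tiles were called lower and 1 higher.

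Male iPSCs were compared with MEFs over the same 56 tiles. Of these 6 were lower (10.7%) and 1 higher (1.79%), beside 15.1% and 3.28% of all tiles. Whether the shares differed was not tested. The median difference was -0.136 points in the domain and -3.49 over all tiles. The largest difference lay in the stretch holding Rian, 67.1 kb after the Meg3 start site (110846281 to 110846487). MEF 4 and 5 were at 78.6% and 100% there, on 14 and 18 reads, and male iPSC 1, 2 and 4 at 15.1%, 14.7% and 11.4%, a fitted difference of -76.7 points (quasi-binomial model, adjusted p = 0.000449). XO 3, 5, 6 and 9 were at 24.7%, 28.0%, 20.1% and 16.7% and XaXa 7 and 8 at 15.0% and 17.9%, so that all 9 iPSC libraries lay below both MEF libraries. The SSEA1-negative and SSEA1-positive cells were at 100% and 88.9%, on 3 and 9 reads.

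Both of the next largest lay side by side 408 kb after the Meg3 start, between Mirg and Dio3. In the first (111187015 to 111187972) MEF 4 and 5 were at 59.7% and 69.2% and male iPSC 1, 2 and 4 at 0.518%, 4.23% and 4.25%, a difference of -61.7 points (quasi-binomial model, adjusted p = 0.000208). The other iPSC libraries were between 0% (XO 9, 0 of 42 reads, which allows up to 7.14%) and 6.83%, and the SSEA1-negative and SSEA1-positive cells at 72.5% and 75.2%. In its neighbour (111186771 to 111186836) MEF 4 and 5 were at 31.0% and 59.4% and male iPSCs at 1.52%, 5.13% and 1.47%, a difference of -44.1 points (adjusted p = 0.000774), with the sorted cells at 43.9% and 67.5%. These 3 tiles kept their calls without MEF 4 or without MEF 5, which left 3 calls in the domain.

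The other 4 calls were lost without either MEF library, with adjusted p between 0.0532 and 0.298. In 3 of them the difference stayed within 3 points of its value with both MEF libraries. The exception was the tile 647 kb after the Meg3 start, at -12.6 points without MEF 4 and -28.8 points without MEF 5. In the tile at the near end of the Dlk1 window (110686077 to 110686857) both MEF libraries and both sorted libraries were at 100% and male iPSC 1, 2 and 4 at 73.6%, 67.4% and 55.0% (-35.3 points, quasi-binomial model, adjusted p = 0.0103). A tile 412 kb after the Meg3 start (111190739 to 111190908) fell from 60.0% and 63.4% in MEF 4 and 5 to 27.4%, 37.7% and 29.9% (-30.6 points, adjusted p = 0.0364), with the sorted cells at 43.2% and 36.6%. A tile 647 kb after it (111426001 to 111426998) stood at 34.2% and 18.0% in MEFs and at 6.35%, 4.55% and 5.41% in male iPSCs (-20.1 points, adjusted p = 0.0385), with the sorted cells at 7.01% and 12.6%. The tile that was higher (111259160 to 111259989), 480 kb after the Meg3 start, was at 24.6% and 30% in MEFs and at 66.4%, 76.2% and 50.4% in male iPSCs (34.99 points, adjusted p = 0.0175). The sorted cells were at 13.9% and 9.89% there, and XaXa 7 and 8 at 24.1% and 21.7%, against 46.9% to 72.4% in the libraries labelled XO. On CpGs read in each of the 11 libraries, 44 tiles of the domain were tested. Of these 6 were lower and 1 higher, beside 13.9% and 2.95% of all tiles, shares near those of the background.

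Outside the domain, the 5 tiles whose levels were closest to those of the IG region over 12 libraries, of 88653 searched, differed from it by 10.7 to 13.5 points on average. Of these, 2 lay within 2 kb of each other on chromosome 1 (140736155 to 140736740 and 140737417 to 140737975), and 1 each on chromosome 11 (116645498 to 116645947), chromosome 4 (155507385 to 155507979) and chromosome 7 (123976294 to 123976458). In the closest, XO 6 and XO 9 were at 94.6% and 72.7%, male iPSC 1 and 2 at 80.0% and 69.7%, male iPSC 4 at 25.3%, XO 3 and XO 5 at 42.9% and 23.5%, and XaXa 7 and 8 at 17.9% and 11.8%. The tiles were chosen for this likeness. Among other regions with a parental imprint, the paternally methylated one near Rasgrf1 had male iPSC 1, 2 and 4 close together, at 65.7%, 63.3% and 61.0%, with XO 3, 5, 6 and 9 at 69.6%, 60.9%, 66.9% and 43.75%. At the paternally methylated region near H19 male iPSC 1, 2 and 4 were at 28.1%, 27.8% and 57.6%. Male iPSC 4, lowest of them in the IG region, was thus highest. These levels rest on 32, 18 and 85 reads over 2, 4 and 5 CpGs, with a 95% Wilson interval of 12.5% to 50.9% in male iPSC 2. XO 3, 5 and 6 were at 55.0%, 44.4% and 54.5% near H19, and XO 9 had under 10 reads. At the maternally methylated region of Snrpn, by contrast, male iPSC 1 and 2 and XO 6, high in the IG region, were again high, at 53.2%, 45.2% and 37.8%. Male iPSC 4, XO 5 and XO 3 were at 17.4%, 5.14% and 1.03%. XO 9, also high in the IG region, was at 18.9% on 37 reads (95% Wilson interval 9.48% to 34.2%). That interval covers the level of male iPSC 4 (570 reads), so the order of XO 9 and male iPSC 4 was not resolved. It lies below the intervals of XO 6 (34.8% to 40.9%), male iPSC 1 (46.6% to 59.6%) and male iPSC 2 (34.3% to 56.6%). By counting error alone, XO 9 was therefore lower at Snrpn than the other libraries high in the IG region. The maternally methylated region of Peg3, on fewer reads, had male iPSC 1 and XO 6 at 50.0% and 38.7%, male iPSC 4 at 27.6%, XO 5 at 4.65% and XO 3 at 0 of 19 reads, which allows up to 15.8%. Male iPSC 2 and XO 9 had under 10 reads there.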

How the data were processed

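RRBS reads were aligned with BSMAP to build mm9, per the submitters' processing notes; no version was given in the sources used here. Per the file headers, the authors deposited for each CpG the total and the methylated read count and their fraction, with position, strand and sequence context. The read counts were used, and the fraction only to check them. Counts were summed per window and per 1 kb tile, with a minimum of 10 reads. Windows were compared by two-sided exact permutation tests over libraries. Tiles of chromosomes 1 to 19 and X were fitted in R 4.3.3 (limma 3.58.1 for moderated dispersions) with a quasi-binomial model over 11 libraries. The fit first planned used reads at full weight. On simulated data it called many unchanged tiles, so reads were down-weighted by an estimated correlation between reads of a library of 0.0329; full-weight counts are given as an alternative. Tables used Python with pandas and scipy. Named tiles were all tested tiles of the Meg3 start window and, elsewhere, at most 10 called tiles per comparison by size. No tile of the IG window had enough reads to be tested. Stretches and imprinted regions outside the 2 placed promoters were set in mm9 from general knowledge. The members, windows and lists were chosen with earlier results of these data known. Wilson intervals cover counting error only, since PCR copies were not identified. Alternatives covered the read minimum, CpG weights and sets, a cap of 200 reads per CpG, autosomal correction, limma and left-out libraries.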

Additional observations from a re-analysis of the deposited data

Results flagged for a closer look

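In the group of 4 libraries labelled XO, the gap between the most extreme library and its nearest neighbour was tested for 34 windows, stretches and tiles with any spread, and 4 stood out; chance flags about 1 in 20 such groups, and the sets overlap. XO 9, the shallowest library, stood apart before Dlk1, at 27.1%. XO 6 stood apart over the Meg3 body and Rtl1, at 86.5%. In the tile at 111186771 to 111186836 XO 6 was at 0.420%, from 238 reads, and XO 3, 5 and 9 at 0 of 59, 89 and 14 reads, which allow up to 5.08%, 3.37% and 21.4%. With the other libraries tied at 0 any methylated read meets this rule, so that value does not set XO 6 apart. XO 3 stood apart in the tile at 111426001 to 111426998, at 17.3%. The causes were not tested.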

How the results depend on the processing

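No paired analysis was possible because the groups compared share fewer than 2 replicate numbers. Fits with reads at full weight, with CpGs shared by libraries, and of tiles without XO 3, 5 and 9 were chosen after seeing the data. Of 178 alternative window values 152 kept direction and side of the threshold, of 57 tile counts 44 stayed within 1.5 times, and of 559 values of named tiles 476 kept both. The causes of the rest were not tested. In window comparisons with XaXa iPSCs or MEFs the smallest possible p was 0.0667 or more, above the threshold. Leaving out libraries put XO minus male iPSC in the same position. For these values the side was fixed in advance by the number of libraries, so keeping or losing it carries no information. With the autosomal level subtracted, XaXa minus XO was 11.4 points at Dlk1 and 9.97 at Dio3, and XaXa minus male iPSC 8.74 and 16.2. The XO and male levels at Dio3, 22.6% and 15.8%, are near or below the autosomal difference subtracted, so the sign there carries no information. Those at Dlk1, 26.8% and 28.9%, are not far above it, so the sign there carries little. After the same subtraction male iPSC minus MEF was 6.63 at Dio3, and XO minus male iPSC 6.27 at Dio3. On CpGs read in every library of 2 groups, XO minus male iPSC was 2.15 at Dlk1 and 10.1 at Dio3, and male iPSC minus MEF 0.571 at Dio3; on CpGs with at least 5 reads in all libraries, male iPSC minus MEF was -6.62 at Dlk1. The unweighted CpG mean gave 11.4 for XO minus male iPSC at Dio3. Without XO 3, 5 and 9 this contrast was 16.2 at IG, 13.8 at the Meg3 start and 4.05 at Dio3. Leaving out 1 library at a time gave, for XO minus male iPSC, -7.38 to 2.05 at Dlk1, -17.9 to 2.44 at the Meg3 start and 5.85 to 7.92 at Dio3, and for male iPSC minus MEF -2.12 to 1.13 at Dio3.

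Tiles called lower in XaXa iPSCs numbered 79 (against XO) and 70 (against male iPSCs) with a minimum of 5 reads, 11 and 11 with 30 reads, and 68 and 63 with XO 9 out of the filter and fit, as 96, 15 and 89 tiles of the domain were then tested. Leaving out 1 library gave 0 to 40 and 0 to 36, with 0 only without XaXa 8; where 1 library is left in a group it is assumed to vary like the others. Tiles lower in male iPSCs than in MEFs numbered 1 with 30 reads, 10 at full weight, 11 by limma, and 3 to 5 without 1 library (3 without MEF 4 or MEF 5). For XO minus male iPSC, which called no tile, the tiles at -1.0, -0.2 and 3.8 kb from the Meg3 start changed sign at full weight (24.3, 18.3 and 4.404 points) and without XO 3, 5 and 9 (22.2, 21.8 and 11.6), and the first on shared CpGs (0.797). Leaving out 1 library gave -25.7 to 10.2, -24.98 to 8.10 and -13.9 to 0.692 points, and -3.17 to 9.07 for the tile at 4.9 kb. For male iPSC minus MEF the first tile was -1.95 at full weight. The counts of called tiles given for alternatives, here and above, mostly stand without the share over all tiles in the same setting. Such counts do not tell a change in the domain from a change over all tiles. Depth limits the IG and Dio3 windows: 0 CpGs of either had 5 reads in all 13 libraries, so that alternative gave no value there, nor did leaving out MEF 5 at IG.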
